A study of Mus musculus with 2 samples.

Results

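The genes described here are 37 mouse antioxidant genes, a named list of regulators, glutathione enzymes, thioredoxin system genes, peroxiredoxins, superoxide dismutases and catalase. Members were the symbols of that list found in the deposited count matrix, and all 37 were among its 17492 genes. The study read single-cell RNA from the corneal epithelium of C57BL/6J mice, all male and 20 weeks old. The control library pooled 4 corneas of 2 mice that received sodium citrate buffer. The diabetic library pooled 4 corneas of 2 mice given streptozotocin once at 160 mg/kg, a toxin of the insulin-producing beta cells, whose blood glucose stayed above 250 mg/dL during the 12 weeks of the study. With 1 library per group, there was no replicate and no test between groups, and the differences below describe these 2 libraries.

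Cells make reactive oxygen species in normal metabolism and under light, and they keep them in check with thiol systems. Glutathione is a small thiol built by glutamate-cysteine ligase and glutathione synthetase, used by peroxidases and transferases, and recycled by glutathione reductase. Thioredoxin and the peroxiredoxins form a parallel system, and the transcription factor NRF2, held back by KEAP1, switches on many genes of both. In the cornea, which is exposed to light and air, these enzymes stand beside aldehyde dehydrogenases as known defences of the epithelium.

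The matrix held whole counts of unique molecular identifiers (UMIs), which tag single captured molecules near the 3′ end. The control library held 196359192 UMIs in 9605 cells (median 16487 per cell), and the diabetic library 171030636 UMIs in 8203 cells (median 17677). The authors' cell table gave 8 labels, 7 of them epithelial (Basal, Wing, Squam, Conj, LSC, TAC1 and TAC2) and 1 named Immune. In both libraries, 5 of the 8 label marker lists were highest in their own label. The Basal list was highest in Wing, the LSC list in Conj, and the TAC1 list in TAC2 in the control library, so these labels are used as the authors' names, and the sources used here do not spell out their abbreviations. Gpha2, a marker of the limbus where corneal stem cells lie, was nonetheless highest in LSC, at 2875 and 2050 CPM. Among the epithelial labels, Ifitm3, Apoe and Krt14 were highest in LSC too. Krt15 made up most of the LSC list's sum in Conj, at 26994 and 27484 CPM. Krt5 made up most of the Basal list's sum in Wing, at 11540 and 12114 CPM. The other Basal markers, Itgb4, Col17a1, Krt14 and Wnt10a, were higher in Basal than in Wing. The LSC share of cells was 2.10% in the control and 4.04% in the diabetic library, that of TAC2 6.84% and 8.61%, and that of Wing 30.2% and 24.1%. In TAC2 the median depth also differed, at 16629 control and 24500 diabetic UMIs per cell. The libraries shared 18 cell barcodes. Immune had 26 control and 10 diabetic cells and enters no comparison. The corneal keratin Krt12 was read in 26 of 26 and 8 of 10 of those Immune cells (7411 and 764 CPM). Free RNA from other cells is 1 possible source, which was not tested. CPM is the count of a gene scaled to a summed total of 1000000.

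Levels are CPM of the counts summed over the cells of a library or label. They were not divided by transcript length, since the assay counts 3′ ends. Intervals are exact at the 95% level and cover counting error only. A gene was called higher or lower when its CPM differed at least 1.5-fold, the libraries together held at least 50 counts of it, and the Poisson intervals of both CPM were apart; this is the rule of size below. Of the 37 members, 36 reached 50 counts over all cells. The member below it was Gpx3, the secreted plasma glutathione peroxidase, with 2 control and 9 diabetic counts.

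Most of the antioxidant RNA came from 2 glutathione transferases. The members together took 3.62% of all UMIs in the control library and 3.29% in the diabetic one. Gsto1 (chr19:47854970-47864790, GRCm38, plus strand), an omega-class transferase that reduces mixed disulfides and dehydroascorbate, supplied 1.84% and 1.81%. Gsta4 (chr9:78182774-78209349, plus strand), an alpha-class transferase that detoxifies the lipid peroxidation product 4-hydroxynonenal, supplied 1.08% and 0.809%. By summed counts over all genes, Gsto1 ranked 4 in the control and 5 in the diabetic library, and Gsta4 ranked 7 and 10. The other members together supplied 0.700% and 0.674%.

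The members were read in different layers, most often with the same highest label in both libraries. Of the 37 members, 29 were highest in the same label in both: 10 in LSC, 6 in TAC2, 5 in Conj, 3 in Wing, 2 each in Basal and Squam, and 1 in TAC1. In both libraries 25 members were lower in Squam than in Basal, and 9 were higher. These levels are descriptions, because the labels may rest on the same counts.

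Squam cells held 47524 CPM of Gsto1 in the control library and 55212 CPM in the diabetic one, where it was the gene of rank 2 and rank 1. Its Basal level was 1650 and 1576 CPM, so Squam exceeded Basal 28.8-fold and 35.0-fold. The control Immune cells held 1353 CPM of Gsto1, close to that Basal level; the part of free RNA in the Basal value was not tested. Txnrd1, the cytosolic thioredoxin reductase, was also highest in Squam, with 154 and 131 CPM in Squam against 6.68 and 5.57 CPM in Basal, 23.0-fold and 23.6-fold higher. Its substrate was low in Squam. Txn1, cytosolic thioredoxin, was read at 2100 and 2177 CPM in TAC2 but at 251 and 155 CPM in Squam.

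Prdx6, the 1-cysteine peroxiredoxin that acts on phospholipid peroxides, was highest in Basal at 1651 and 1532 CPM, against 297 and 224 CPM in Squam. Gsta4 was highest in Wing, at 16843 and 14278 CPM, and nearly as high in Conj, at 16625 and 13621 CPM. Gstm1, a mu-class transferase, marked the other end of the epithelium with 177 and 175 CPM in LSC and 4.23 and 2.16 CPM in Squam. Mgst1, a microsomal transferase, stood at 89.5 and 67.8 CPM in LSC and at or below 20.1 CPM in every other epithelial label of both libraries. Slc7a11, the cystine import subunit, had 34 and 49 counts in all, and its level was 4.59 and 4.78 CPM in LSC against at most 0.540 CPM in any other label. Prdx4, the peroxiredoxin of the secretory pathway, was highest in TAC2 at 77.7 and 75.8 CPM.

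**Figure D1:**
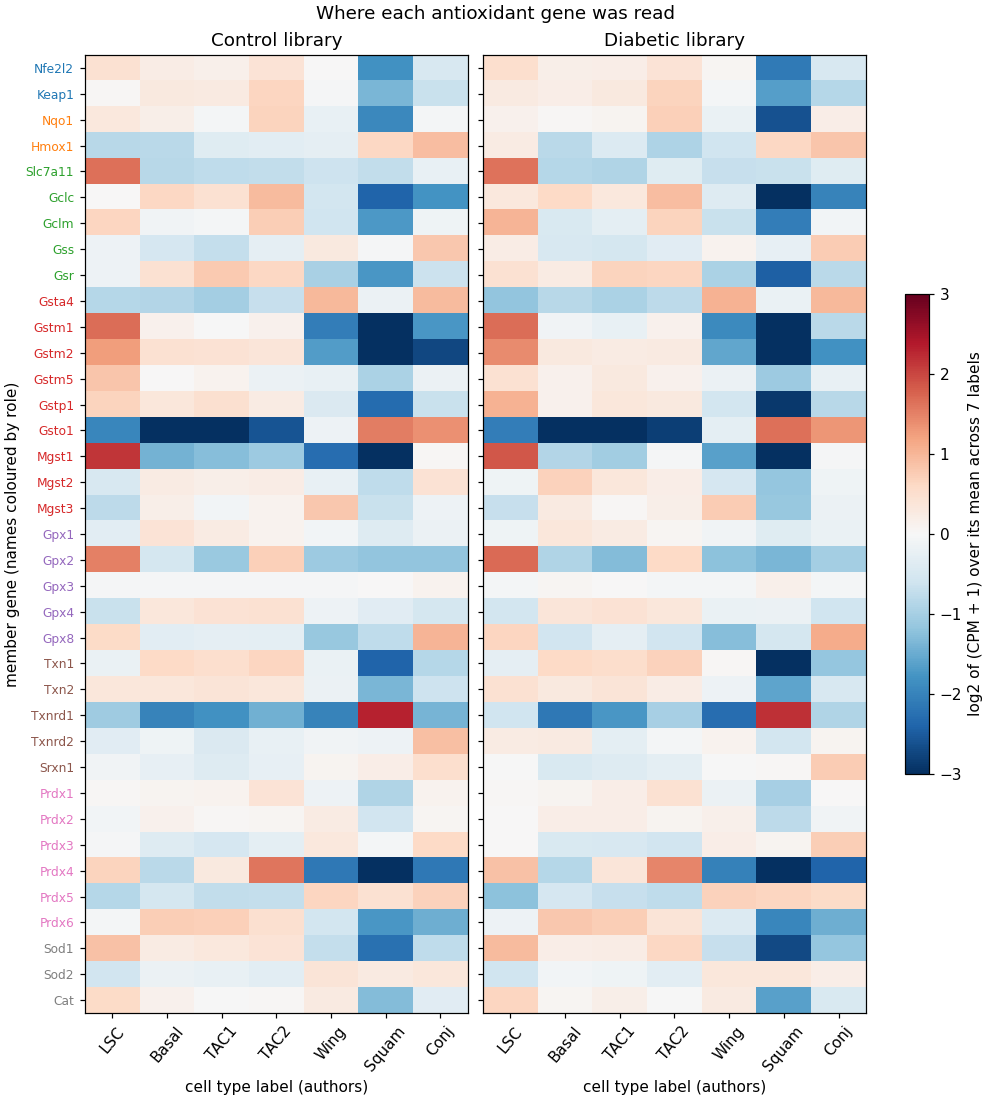
Each row is 1 member and each column 1 of the 7 epithelial labels, for the control (left) and diabetic (right) library; colour gives log2 of CPM plus 1 over its mean across the labels, and gene names are coloured by role. Gsto1 and Txnrd1 were highest in Squam in both libraries, while Gstm1, Gstm2 and Mgst1 were highest in LSC.

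Over all cells, 3 of 36 measured members were higher in the diabetic library (Gclc, Gpx2 and Mgst1) and 2 were lower (Gstp1 and Hmox1). By the same rule 5.98% of all 13846 measured genes were higher and 2.80% lower (8.78% in all), against 8.33% and 5.56% of the members (13.9% in all). Ratios were above 1 for 19 members and below 1 for 17. The median log2 ratio of the members was 0.01, and that of all measured genes was 0.07. The list as a whole therefore lay close to the level of the other genes, with single members well away from it.

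**Figure D2:**
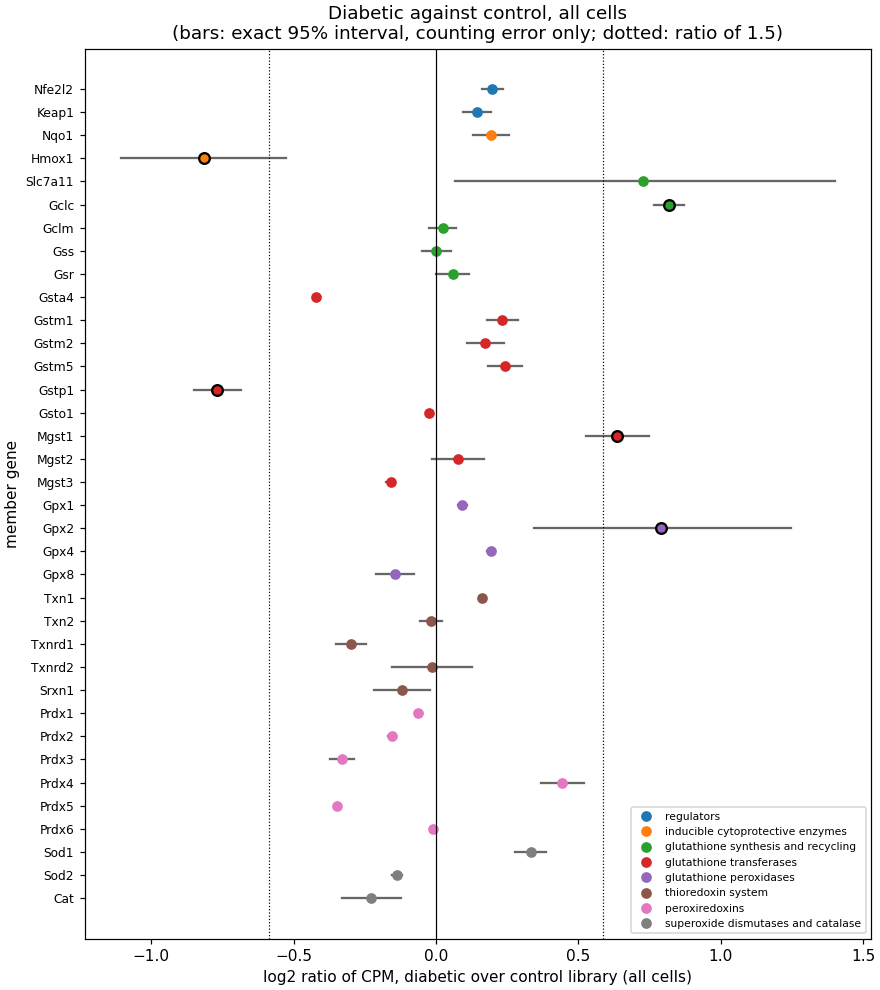
Points give the log2 CPM ratio of diabetic over control for the 36 measured members over all cells, coloured by role; bars are exact 95% intervals (counting error only), dotted lines mark a ratio of 1.5, and points with a black rim were past the rule of size. Gclc, Gpx2 and Mgst1 lie right of the right dotted line, and Gstp1 and Hmox1 left of the left one.

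Neither arm of the NRF2 switch passed the rule. Nfe2l2 (chr2:75675513-75704641, minus strand), which encodes NRF2, stood at 61.2 CPM in the control and 70.1 CPM in the diabetic library, a ratio of 1.15 (95% interval 1.12 to 1.18). Keap1 (chr9:21229730-21239361, minus strand), which encodes the adaptor that sends NRF2 to degradation, stood at 33.4 and 36.9 CPM, a ratio of 1.10 (1.07 to 1.14). Within labels the Nfe2l2 ratio ran from 0.872 in Squam to 1.15 in Wing, and that of Keap1 from 0.882 in Squam to 1.27 in LSC. Both genes were lowest in Squam, where Nfe2l2 had 18.6 and 16.2 CPM against 93.6 and 106 CPM in LSC.

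NRF2 binds antioxidant response elements, whose core is written TGACNNNGC, or GCNNNGTCA when read on the other strand. That core was searched on both strands from 250 bases before to 50 bases after each RefSeq start site (GRCm38.p6). Its first letters overlap with the AP-1 site TGACTCA, so a match can hold letters of both. Promoters were matched for 32 members. Prdx6, Gsr, Hmox1, Gclc and Gsta4 were not among them. The core was found for 8 of the 32, or 25%, and for 14.0% of the 27025 genes of the table. It is a match of letters, not a site. The 7 windows of 60 bases below lie before the start site and are shown because the genes share the motif but not their ratio; each is written 5′ to 3′ along the gene's strand, with the match in capitals. The match begins 240 bases before the start in Nfe2l2, 134 in Gclm, 133 in Prdx1, 92 in Txnrd1, 56 in Mgst1 and in Sod1, and 42 in Gstm5.
Nfe2l2, chr2:75704854-75704913, minus strand: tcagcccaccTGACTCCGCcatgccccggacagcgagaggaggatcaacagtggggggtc
Gclm, chr3:122245398-122245457, plus strand: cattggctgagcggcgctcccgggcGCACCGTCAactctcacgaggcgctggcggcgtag
Prdx1, chr4:116685441-116685500, plus strand: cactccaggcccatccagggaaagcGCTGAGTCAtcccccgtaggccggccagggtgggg
Txnrd1, chr10:82859089-82859148, plus strand: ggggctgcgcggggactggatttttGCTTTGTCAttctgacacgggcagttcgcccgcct
Mgst1, chr6:138140446-138140505, plus strand: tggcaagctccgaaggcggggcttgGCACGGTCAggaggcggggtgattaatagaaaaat
Sod1, chr16:90220681-90220740, plus strand: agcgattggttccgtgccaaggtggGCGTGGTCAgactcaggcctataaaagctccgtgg
Gstm5, chr3:107895787-107895846, plus strand: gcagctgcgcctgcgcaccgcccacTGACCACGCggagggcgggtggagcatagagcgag

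Ratios of these 7 genes over all cells ran from 0.813 for Txnrd1 to 1.55 for Mgst1, with Prdx1 at 0.958, Gclm at 1.02, Nfe2l2 at 1.15, Gstm5 at 1.18 and Sod1 at 1.26. Holding the core letters thus went with ratios on both sides of 1. The match of Srxn1, which encodes sulfiredoxin, the enzyme that restores overoxidised peroxiredoxins, lies after the start site, and its ratio was 0.921.

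The inducible enzymes differed from each other. Nqo1, a quinone reductase commonly used as a readout of NRF2, had 20.9 and 23.8 CPM, a ratio of 1.14. Hmox1 (chr8:75093621-75100589, plus strand), the heme oxygenase that degrades heme, was scarce, with 303 control and 150 diabetic counts. Its level was 1.54 and 0.877 CPM, 1.76-fold lower in the diabetic library (95% interval 1.44 to 2.15). Wing cells gave the lower call of Hmox1 within labels, from 91 and 22 counts, or 1.15 and 0.415 CPM. Squam cells gave 3.00 and 2.26 CPM and Conj cells 3.96 and 2.78 CPM, with overlapping intervals.

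Glutathione synthesis split between its subunits. Gclc (chr9:77754535-77794485, plus strand), the catalytic subunit of glutamate-cysteine ligase and the rate-limiting enzyme of the pathway, had 23.4 CPM in the control and 41.3 CPM in the diabetic library, a ratio of 1.76 (1.70 to 1.83). Gclm, the modifier subunit of the same enzyme, had 41.1 and 41.7 CPM, a ratio of 1.02 (0.984 to 1.05). Gss, glutathione synthetase, stood at 33.4 CPM in both libraries, and Gsr, glutathione reductase, at 26.3 and 27.4 CPM. Over all cells, the catalytic subunit was thus the 1 called gene of the 5 synthesis and recycling members, of which Slc7a11 had overlapping intervals at 34 and 49 counts.

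Gclc was higher in 4 of the 7 epithelial labels. In LSC it stood at 27.5 and 54.7 CPM (1.99-fold higher), in Basal at 42.9 and 66.3 CPM (1.55-fold), in TAC2 at 53.4 and 83.9 CPM (1.57-fold), and in Wing at 18.5 and 33.1 CPM (1.79-fold). The LSC call ended when cells were thinned, at 26 and 78 counts with a ratio of 1.72 and overlapping intervals, and the TAC2 call without likely doublets, at a ratio of 1.48 with intervals apart. TAC1 had 37.7 and 55.1 CPM, a ratio of 1.46 with intervals apart but short of the rule. Conj had 7.20 and 10.1 CPM with overlapping intervals. Squam was the label in which the ratio lay below 1, at 4.41 and 3.24 CPM, again with overlapping intervals. With every label given the same weight in both libraries, the ratio of Gclc over all cells was 1.58. Gclm took another course, from a ratio of 1.33 in LSC to 0.789 in Basal, both with intervals apart.

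Among the 9 glutathione transferases, 1 was higher, 1 was lower, and 5 had a ratio above 1. Gstp1 (chr19:4035407-4037985, minus strand), the pi-class transferase, had 17.8 and 10.4 CPM, 1.70-fold lower in the diabetic library (1.61 to 1.80). It was lower by the rule in 6 of 7 labels: 28.0 and 14.3 CPM in Basal, 31.1 and 16.6 CPM in TAC1, 26.4 and 16.2 CPM in TAC2, 15.9 and 8.49 CPM in Wing, 3.67 and 0.883 CPM in Squam, and 13.4 and 6.81 CPM in Conj. In LSC it had 35.3 and 27.8 CPM with overlapping intervals. The ratio of Gstp1 was thus below 1 in 7 of 7 epithelial labels. Of the 60-base stretches in the last 500 bases of Gstp1 transcripts, 76.0% also occur in another gene. Most often that gene is its neighbour Gstp2 (chr19:4040285-4046023), so reads of the pair can be split between them. Gstp2 was also lower, at 0.998 and 0.392 CPM from 196 and 67 counts.

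Gsta4 had 10826 and 8087 CPM over all cells, a ratio of 0.747 (0.745 to 0.749), or 1.34-fold lower, which is short of the rule. It was below 1 with intervals apart in 7 of 7 labels, from 1.18-fold lower in TAC1 to 1.56-fold lower in LSC, where 4788 and 3077 CPM passed the rule. Gsto1, by contrast, stood at 18421 and 18109 CPM, a ratio of 0.983, and within labels its ratio ran from 0.909 in TAC2 to 1.16 in Squam. The pair of most abundant members therefore differed in ratio, with Gsta4 further from 1 than Gsto1.

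Mgst1 had 5.98 and 9.30 CPM over all cells, a ratio of 1.55 (1.44 to 1.68). It passed the rule in TAC2, at 8.62 and 17.4 CPM, and in Wing, at 3.17 and 5.17 CPM. Both calls ended when cells were thinned to 5000 UMIs, with ratios of 1.62 and 1.70 and overlapping intervals. All 5 LSC markers were also higher in diabetic TAC2 cells, summing to 2278 and 3121 CPM, and their part in the TAC2 value was not tested. Of these markers, Gpha2, Ifitm3, Krt15 and Krt14 were also higher in diabetic Basal, TAC1, Wing and Conj cells. Apoe was higher in Wing and Conj and lower in Basal and TAC1. In LSC, which held the highest level of Mgst1, the order was the opposite, at 89.5 and 67.8 CPM with intervals apart. With equal label weights the ratio over all cells was 1.21, no longer past the rule, and LSC and TAC2 held larger shares of the diabetic cells. Mgst3, the third most abundant transferase of the list, had 372 and 334 CPM, a ratio of 0.896.

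The mu-class members were divided by label. Gstm1 had 27.8 and 32.6 CPM over all cells and Gstm2 had 20.1 and 22.7 CPM. In Conj, both were higher in the diabetic library: Gstm1 at 15.6 and 30.2 CPM (1.94-fold) and Gstm2 at 4.05 and 8.42 CPM (2.08-fold). The Gstm2 call rests on 45 and 94 counts and ended when cells were thinned to 5000 UMIs, at 10 and 18 counts with a ratio of 1.89. All 5 LSC markers and all 5 Basal markers were also higher in diabetic Conj cells, among them Krt14 at 104 and 245 CPM and Gpha2 at 80.7 and 162 CPM. These differences were not particular to Conj. Gpha2 was higher in every epithelial label other than LSC, and Krt14 in every one other than Squam. The part of these markers in the Conj values was not tested. Squam gave the reverse, with 4.23 and 2.16 CPM for Gstm1 and 3.00 and 1.44 CPM for Gstm2. The genes are close relatives, and 19.9% of the 3′ stretches of Gstm1 and 7.29% of those of Gstm2 also occur in another gene, so their counts are uncertain. Gstm5 had a ratio of 1.18 over all cells, and Mgst2 one of 1.05.

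Of the glutathione peroxidases, Gpx2 passed the rule and Gpx1 and Gpx4 had small ratios in 1 direction. Gpx2, known from the gut epithelium, rested on 71 control and 107 diabetic counts, or 0.362 and 0.626 CPM, a ratio of 1.73 (1.27 to 2.37). It passed the rule in no single label. TAC2, the label where it reached 50 counts, gave 2.72 and 2.88 CPM, LSC gave 5.51 and 7.38 CPM, and the ratio over all cells was 1.09 with equal label weights. Of its 3′ stretches, 18.4% also occur in another gene, most often a pseudogene copy. Gpx1, the cytosolic peroxidase, had 388 and 413 CPM, a ratio of 1.07. Gpx4, which reduces lipid peroxides in membranes, had 467 and 534 CPM, a ratio of 1.14. Both lay above 1 in 7 of 7 labels, with intervals apart in 4 for Gpx1 and 5 for Gpx4. The counts of Gpx4 are uncertain, because 87.7% of its 3′ stretches also occur in other genes, most often the copy Gpx4-ps2. Gpx8, of the endoplasmic reticulum, had 20.7 and 18.7 CPM.

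No member of the thioredoxin system passed the rule over all cells. Txn1 (chr4:57943373-57956411, minus strand) had 1239 and 1385 CPM, a ratio of 1.12 (1.11 to 1.12). Its labels disagreed: Wing had 1171 and 1378 CPM, a ratio of 1.18, and Squam had 251 and 155 CPM, 1.62-fold lower. Txnrd1 (chr10:82833951-82897712, plus strand) had 36.6 and 29.8 CPM, a ratio of 0.813 (0.784 to 0.843). Mitochondrial thioredoxin, Txn2, had 58.3 and 57.6 CPM. Its reductase Txnrd2 had 4.57 and 4.52 CPM, and was lower by the rule in Squam, at 4.26 and 2.78 CPM, and in Conj, at 9.90 and 4.84 CPM. The Squam call ended under median-of-ratios scaling, at a ratio of 0.691, and when cells were thinned, at 29 and 19 counts. The Conj call ended at a minimum of 200 counts and when cells were thinned, at 23 and 9 counts. Srxn1 had 9.68 and 8.92 CPM.

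The peroxiredoxins were mostly below their control level by less than the rule asks. Of the 6, 5 had a ratio below 1 and none was past the rule. Prdx5, found in mitochondria, peroxisomes and cytosol, had 1815 and 1426 CPM, a ratio of 0.786 (0.782 to 0.790). Its intervals were apart in 7 of 7 labels, and LSC, at 832 and 522 CPM, passed the rule. Prdx1 had 527 and 505 CPM, a ratio of 0.958, and Prdx2 had 447 and 402 CPM, a ratio of 0.898. Prdx6 had 889 and 881 CPM over all cells, with a ratio of 0.992, yet was below 1 in 7 of 7 labels. Mitochondrial Prdx3, at 56.6 and 45.1 CPM, had a ratio of 0.796. Prdx4 was the exception over all cells, at 13.6 and 18.5 CPM, with a ratio of 1.36. Within labels, the Prdx4 ratio was above 1 in 4 and below 1 in 3, with intervals apart in none. In TAC2, its highest label, it had 77.7 and 75.8 CPM.

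Prdx1, Prdx3, Prdx5 and Prdx6 together with Gsta4 and Gstp1 were the 6 members with a ratio below 1 in 7 of 7 labels, and Gpx1 and Gpx4 were the 2 with a ratio above 1 in 7 of 7. These are 19.4% and 6.45% of the 31 members measured in every epithelial label. Of the 7952 genes measured in every label, 11.5% were below 1 in 7 of 7 and 10.2% above.

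Superoxide dismutases and catalase stayed short of the rule over all cells. Cytosolic Sod1 had 25.8 and 32.4 CPM, a ratio of 1.26, and 22.2% of its 3′ stretches also occur in another gene. Mitochondrial Sod2 had 276 and 251 CPM, a ratio of 0.909. Cat, the peroxisomal catalase, had 9.08 and 7.75 CPM, a ratio of 0.854.

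**Figure D3:**
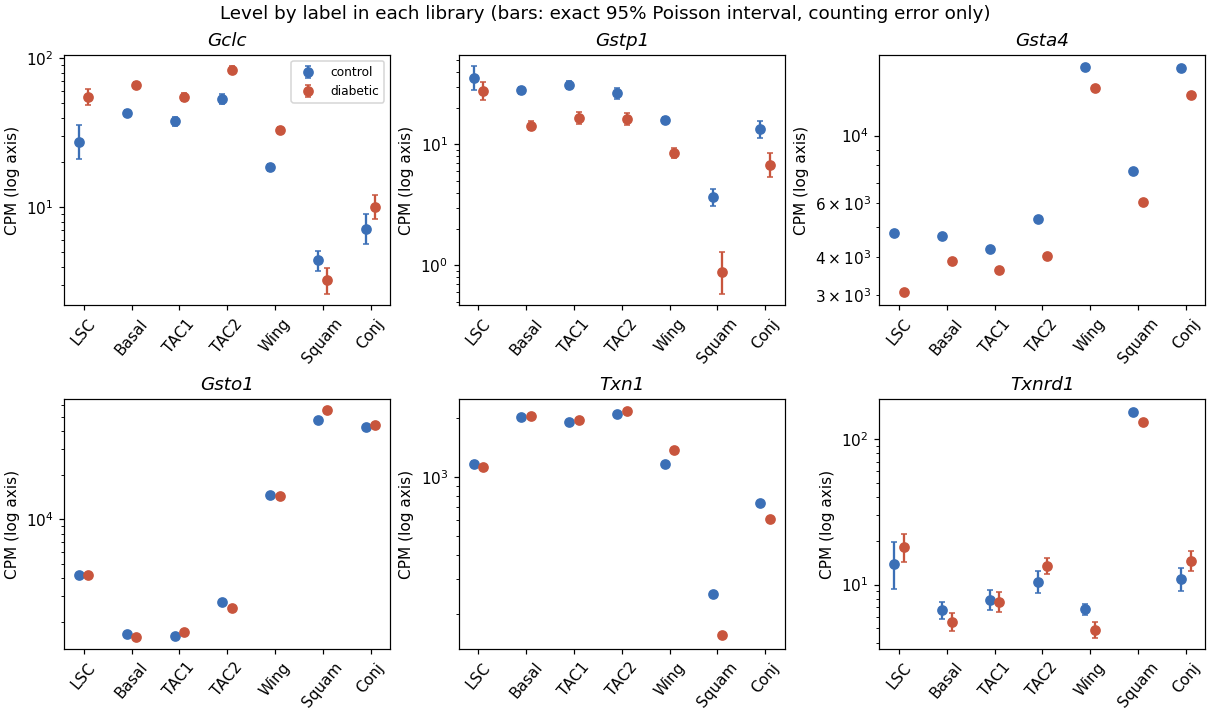
CPM on a log axis in each of the 7 epithelial labels for 6 members, control in blue and diabetic in red; bars are exact 95% Poisson intervals (counting error only). Gclc has a ratio above 1 in 6 of 7 labels and Gstp1 a ratio below 1 in 7 of 7, while the Txn1 points are furthest apart in Squam, at 251 and 155 CPM.

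Within labels, 233 of the 259 possible pairs of member and label reached 50 counts. Of these, 27 passed the rule, or 11.6%, with 9 higher and 18 lower, and 14 members were involved. Over all genes, 5.37% of pairs passed, 2.51% higher and 2.86% lower. Pairs of 1 gene are not independent of each other, and Gclc and Gstp1 alone gave 10 of the 27.

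The labels differed in how many members passed. LSC had 2 higher (Gclc and Gsr, the latter at 29.4 and 45.0 CPM) and 2 lower (Gsta4 and Prdx5) of 32 measured, against 2.63% and 2.61% of all genes. The Gsr call rested on 64 and 207 counts. Like that of Gclc, it ended when cells were thinned, at 24 and 76 counts with a ratio of 1.81 and overlapping intervals. Markers of other cells also differed between the LSC cells of the libraries. The summed level of the 3 Wing markers was 593 and 363 CPM, with all 3 lower, and Gsta4 and Prdx5 are members with higher levels in Wing than in LSC. These differences were not particular to LSC. Dsg1a, Lypd3, Gsta4 and Prdx5 were lower in every epithelial label, Wing among them. Dsc2 was lower in Wing too, but higher in Basal and TAC1. The 3 corneal endothelium markers summed to 1.84 and 60.8 CPM, with Car3 and Col8a1 at 0 in the control library. The 4 TAC2 markers summed to 23.0 and 76.5 CPM. The 2 neutrophil markers summed to 8.26 and 29.8 CPM but went opposite ways. S100a9 had 6.43 and 29.1 CPM, and S100a8 had 1.84 and 0.652 CPM. S100a9 was higher in Squam than in LSC in both libraries, so it is not particular to neutrophils here. The part of all these markers in the LSC values was not tested. Basal had 1 higher and 1 lower of 33, against 2.63% and 2.38%. TAC1 had 0 higher and 1 lower of 33, against 1.70% and 1.52%. In Basal no member other than Gclc and Gstp1 was called, and in TAC1 no member other than Gstp1. TAC2 had 2 higher and 1 lower of 34, against 2.21% and 1.35%. Wing had 2 higher and 2 lower of 34, against 3.93% and 2.59%. Conj had 2 higher and 3 lower of 34, against 2.52% and 1.95%, and the lower ones were Gstp1, Txnrd2 and Mgst2, at 15.5 and 10.2 CPM.

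Squam stood apart from the other labels. There, 8 of 33 measured members were lower in the diabetic library and 0 were higher, and 29 of 33 ratios were below 1 (87.9%). Over all genes in Squam 7.75% were lower, 1.79% were higher and 61.1% of ratios were below 1. The median log2 ratio was −0.34 for the members and −0.08 for all genes. Beside Gstp1, Gstm1, Gstm2, Txn1 and Txnrd2, the lower members were Gsr at 8.95 and 5.10 CPM, Nqo1 at 5.72 and 3.53 CPM, and Cat at 3.20 and 1.93 CPM. Txn1 was the one of these 8 above 10 CPM in Squam. Apart from Txnrd2, these genes are genes of the deeper layers: their Basal level exceeded their Squam level from 3.22-fold for Cat in the control library to 27.6-fold for Gstm2 in the diabetic one.

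Markers of the deeper layers also differed in Squam, with the LSC list mixed. All 5 Basal markers were lower in diabetic than in control Squam cells: Itgb4 at 9.15 and 5.49 CPM, Col17a1 at 102 and 77.2 CPM, Krt14 at 33.0 and 27.6 CPM, Krt5 at 4073 and 3518 CPM, and Wnt10a at 4.90 and 3.50 CPM. Their summed level was 4222 and 3632 CPM, with no marker at 0. The 3 Wing markers were lower too, with Lypd3 at 80.5 and 49.6 CPM, and all 3 were also lower in Wing and LSC cells. Of the 5 LSC markers, Gpha2 was higher at 33.7 and 58.6 CPM and Krt15 at 4659 and 4913 CPM. Ifitm3, Apoe and Krt14 were lower. Of the 4 Squam markers, Psca was higher at 28930 and 40529 CPM and Ndrg1 at 146 and 210 CPM, while Cldn23 had 445 and 423 CPM and Cldn4 152 and 131 CPM. A subset of Squam cells had no UMI of Itgb4, Col17a1 or Wnt10a (852 control and 756 diabetic cells). This choice was made after the data were seen. In the subset, 4 of 28 measured members were lower (Gsr, Txn1, Txnrd2 and Mgst3). The share of all genes called lower in those cells was not counted, so this count has no background. There 23 of 28 measured ratios were below 1, or 82.1% against 57.6% of all genes, with a median log2 ratio of −0.19 against −0.05. Txn1 had 131 and 79.4 CPM in those cells and Gsr 6.95 and 3.42 CPM. Gstp1, Gstm1 and Gstm2 had under 50 counts there, with ratios of 0.239, 0.618 and 0.337, and Cat had 34 and 19 counts, a ratio of 0.641 and overlapping intervals. Nqo1 was the former call whose ratio came close to 1, at 0.875. With each cell thinned to 5000 UMIs, Gsr and Txn1 were still called in Squam, and the other 6 ratios stayed below 1, 5 of them on fewer than 50 counts. The part of the makeup of the Squam label in these values was not tested.

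**Figure D4:**
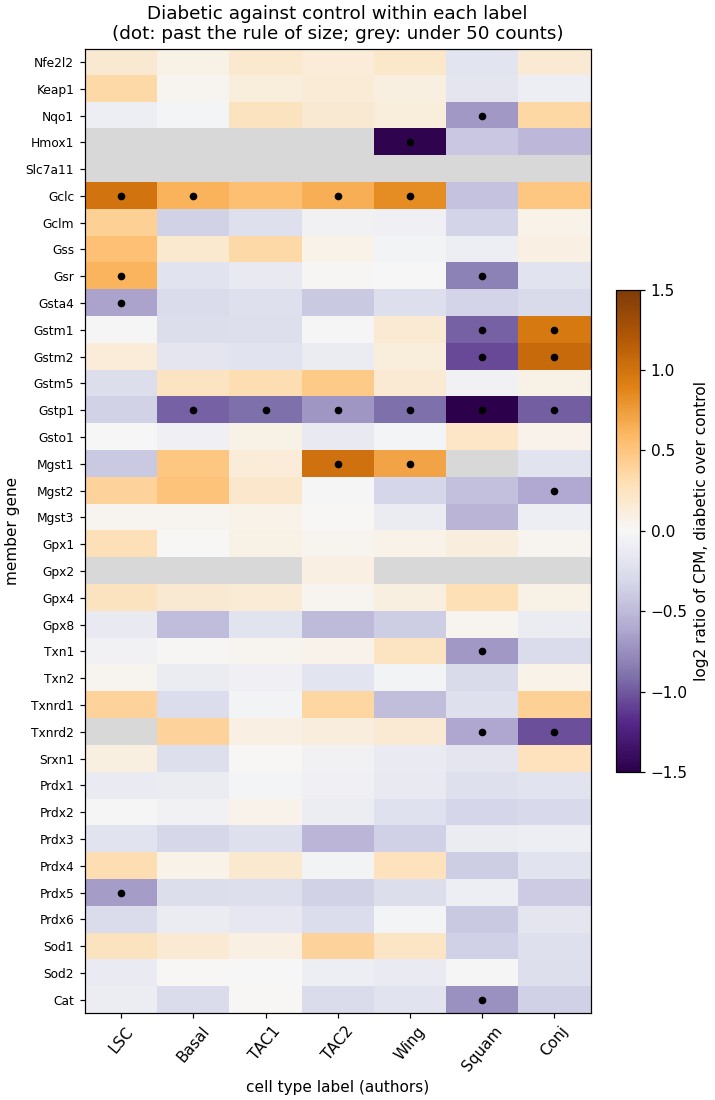
Colour gives the log2 CPM ratio of diabetic over control for each of the 36 measured members (rows) in each epithelial label (columns); dots mark pairs past the rule of size and grey marks pairs under 50 counts. The Squam column holds 8 dots, each for a lower level, the row of Gclc has 4 dots and that of Gstp1 has 6.

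The wider pathway was read from 93 related genes outside the list, of which 91 were in the matrix and measured. Over all cells 3 were higher and 3 lower, beside 5.98% and 2.80% of all genes. A ratio above 1 was found for 41 of the 91 and for 61.4% of all genes, and the median log2 ratio of the related genes was −0.02. Among 30 NRF2 partners and targets, 1 was higher, 0 were lower, 20 had a ratio above 1 and the median was 0.13, against 0.07 for all measured genes. The higher gene was Akr1b8, an aldo-keto reductase, at 2.84 and 4.61 CPM. Among 30 further genes of glutathione metabolism, 1 was higher, 3 were lower, 7 had a ratio above 1 and the median was −0.16. The higher one was Anpep, an aminopeptidase that can cleave the glutathione breakdown product cysteinylglycine, at 2.76 and 4.27 CPM; in LSC, its highest label, it had 53.7 and 59.3 CPM.

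The 3 lower genes were all of glutathione metabolism. Glrx, glutaredoxin, which removes glutathione from proteins, had 17.7 and 10.7 CPM, 1.66-fold lower, with 25.9 and 14.1 CPM in Squam and 23.2 and 17.0 CPM in Wing. Ggt6, a member of the gamma-glutamyltransferase family, had 4.02 and 1.92 CPM, 2.10-fold lower. Gstp2, given above beside Gstp1, was 2.55-fold lower. Of the 31 measured thioredoxin-like genes, methionine sulfoxide reductases, selenoproteins and oxidases, 1 was higher, 0 were lower and 14 had a ratio above 1, with a median of −0.02. The higher gene was Duox2, a dual oxidase that makes hydrogen peroxide, at 1.56 and 2.37 CPM over all cells and at 7.56 and 13.0 CPM in Squam. Gsta1, Gsta2 and Gsta3, relatives of Gsta4 singled out after their values were seen, had ratios of 0.721, 0.729 and 0.702, on the same side of 1 as Gsta4 and short of the rule.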

How the data were processed

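Droplet-based 3′ single-cell RNA sequencing was measured in 1 control and 1 diabetic library. The authors deposited raw whole-number UMI counts and a table with each cell's group and label, per the file headers. Per the submitters' processing notes, which state no roles, Cell Ranger 5.0.0, Seurat 4 and build mm10 were used. How cells were filtered, doublets removed and labels named is not given in the sources used here. Cells had at least 520 UMIs and up to 29.3% mitochondrial counts.

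Counts were summed over cells of a library or label and expressed as CPM, with exact Poisson intervals and exact conditional binomial intervals of ratios at the 95% level. Calls used the rule of size given in the text, which was tested on simulated data. The simulated counts held counting error only, so they cannot show how the rule behaves under spread between mice or pools. No p-value was computed. The members, gene lists and tests were chosen with earlier results of these data known. Full values are given for Nfe2l2, Keap1, members past the rule in all cells or in at least 2 labels, and the 10 most abundant members; related genes are named when past the rule in all cells, at most 6 per direction, ranked by log2 ratio after adding 10 CPM. Alternatives were median-of-ratios scaling, equal cell weights, thinning to 5000 UMIs (486 control and 264 diabetic cells left out), equal label weights, other count minimums and ratios, and removal of cells over 10% mitochondrial counts (36 and 26 cells) or of likely doublets. Scrublet's automatic threshold marked 0 cells, so the top 8% of scores were left out (791 and 683 cells). Gene positions and 3′ ends came from GENCODE M21 on GRCm38, and promoters from RefSeq. Software was scanpy 1.11.5, pandas 2.3.3, scipy 1.17.1 and numpy 2.4.6 under Python 3.11.15, with matplotlib 3.10.9 for plots.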

Additional observations from a re-analysis of the deposited data

Results flagged for a closer look

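For 7 members the diabetic library was higher in at least 1 epithelial label and lower in at least 1 other, with intervals apart in both. Each also had a call by the rule of size in at least 1 label. How many of all genes meet these conditions was not counted, so the 7 have no background share. Gclm and Gsto1 also had intervals apart in both directions, but no call. These differences between labels were not tested, since there is 1 library per group. A quotient was taken of the highest over the lowest ratio among labels with intervals apart, a choice that makes it large. It was 4.34 for Gstm2 and 3.80 for Gstm1, both between Conj and Squam. It was 2.68 for Gsr, between LSC and Squam, and 2.67 for Mgst1, between TAC2 and LSC. For Mgst2 it was 2.15, between Basal (13.4 and 19.0 CPM) and Conj. The quotient was 2.07 for Nqo1, between Conj (23.9 and 30.6 CPM) and Squam, and 1.91 for Txn1, between Wing and Squam.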

How the results depend on the processing

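Over all cells, 5 members passed the rule. The count was 2 (Gclc and Gstp1) with equal weight for every cell and with cells thinned to 5000 UMIs, 3 (Gclc, Gstp1 and Hmox1) with equal label weights, 10 at the looser of the other ratio thresholds (where 19.7% of all genes passed) and 0 at a ratio of 2 (3.02%). It was 4 or 5 under the other scaling, count minimums and cell filters tried. Gpx2 turned to a ratio of 0.919 when thinned. Mgst1 was at 1.49 under median-of-ratios scaling and from 1.21 to 1.37 under equal cell weights, thinning and equal label weights. Hmox1 kept ratios of 0.572 with equal cell weights and 0.556 when thinned, but did not meet every condition of the rule. Under the scaling, weighting, thinning and cell filter alternatives, 1 to 6 of the 36 members crossed a ratio of 1. The median log2 ratio of 0.012 was −0.054 under median-of-ratios scaling, which moves the median of all genes to 0, 0.020 with equal cell weights, 0.040 when thinned and −0.080 with equal label weights. Of member and label pairs, 27 passed in the reported analysis, 52 at the looser ratio, 17 when thinned, and 21 to 28 under the other alternatives. Of the 27, 12 kept their call when thinned, 21 at a minimum of 200 counts, 24 without likely doublets and 26 under median-of-ratios scaling; all 27 stayed on the same side of 1 under these, and 9 of the 15 lost when thinned had fewer than 50 counts. The Squam count of 8 was 5 at a minimum of 200 counts. The cause of these moves was not tested. No paired analysis was possible because each group has 1 library and the labels give no replicate numbers; for the same reason no replicate could be left out. Depth limits Gpx2, Hmox1, Slc7a11 and Gpx3.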
